A study of Mus musculus with 23 samples.

Results

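Tumors of obese mice that had undergone vertical sleeve gastrectomy were compared with tumors of mice that stayed obese. The comparison held 12 of the 23 arrays of the series, chosen by title: 6 DIO-VSG tumors and 6 DIO-HFD tumors, each from 1 mouse. All mice were female C57BL6Ncrl mice. In both groups diet-induced obesity (DIO) was brought about with a 60% high-fat diet (D12492). DIO-VSG mice then had the sleeve operation, which removes most of the stomach, and were given the low-fat diet D12450J, whereas DIO-HFD mice had a sham operation and remained on the high-fat diet. The operation and the change of diet therefore cannot be told apart in this comparison. E0771 cells, a single mouse line of mammary cancer, were injected into the mammary fat pad 22 weeks after the first randomization, and the tumors were taken at endpoint. DIO-LFD tumors (n = 5), from obese mice moved to the low-fat diet with a sham operation, and CON-LFD tumors (n = 6), from never obese mice, entered the same fit and are used here only where named. The title and the group label of DIO-VSG 1 name the surgery, but its source name gives the low-fat diet, and the source name of DIO-LFD 1 gives obesity without weight loss. Results that rest on DIO-VSG 1 are therefore given with and without it.

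A tumor removed whole carries RNA of the cancer cells and of the immune cells, vessels and connective tissue around them. Interferons, cytokines released during viral infection or by activated T and natural killer (NK) cells, switch on a shared set of genes through STAT and IRF transcription factors. Their products include GTPases that attack intracellular pathogens, sensors of foreign nucleic acids, and the machinery that cuts proteins into peptides and displays them on MHC class I molecules to CD8+ T cells. Macrophages of fat tissue and tumors can instead carry markers linked to the cytokines IL-4 and IL-13, such as the mannose receptor and C-type lectins. Obesity is known to enlarge the macrophage pool of fat tissue, and leptin, insulin and IGF-1 tie body fat to growth signals.

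The scale of all values is log2, so that a difference of 1 is a doubling of signal. Of 19505 genes, limma called 0 after adjustment over all genes (0% called, smallest adjusted p = 0.86). At an unadjusted p below 0.05 it found 569 genes higher (2.92%) and 520 lower (2.67%) in DIO-VSG, 5.58% in all, and among the 11886 genes above the limit of low signal 3.54% were higher and 1.99% lower. The values of the 2 groups did not overlap, with all 6 DIO-VSG arrays above or below all 6 DIO-HFD arrays, for 22 genes higher (0.113%) and 18 lower (0.0923%). The difference was above 0 for 48.3% of genes, or 50.6% of those above the limit, and the median over all genes was -0.01. In all, 96 genes were higher and 58 lower by at least 1. None of the 103 genes whose differences are given below was called (limma adjusted p between 0.86 and 0.929). Where a count of genes at p below 0.05 is given, that p is unadjusted, from limma and two-sided. Fewer cells of a type and less RNA per cell cannot be told apart in such tumors.

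The labelled tissue was checked first. Vim, an intermediate filament of mesenchymal cells, averaged 17.5 in both groups, and Krt8, a keratin of glandular epithelium, averaged 12.2 in DIO-VSG tumors and 12.4 in DIO-HFD tumors. Esr1 and Pgr, the estrogen and progesterone receptors, averaged 4.2 and 3.4 in DIO-VSG tumors and 4.4 and 3.5 in DIO-HFD tumors, below the limit of low signal of 4.77. Signal of tissues that surround a tumor varied between the arrays. The mean of 25 skeletal muscle genes was 9.78 in DIO-VSG 2 and 11.32 in DIO-VSG 4, against 9.87 in DIO-HFD 1 and 8.61 in DIO-HFD 4, with the other 8 tumors between 5.08 and 7.14. The mean of 18 adipocyte genes, 12 of them above the limit of low signal, was between 5.22 and 7.68 in DIO-VSG tumors, against 5.44 to 6.13 in 5 DIO-HFD tumors and 10.80 in DIO-HFD 5.

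**Figure D1:**
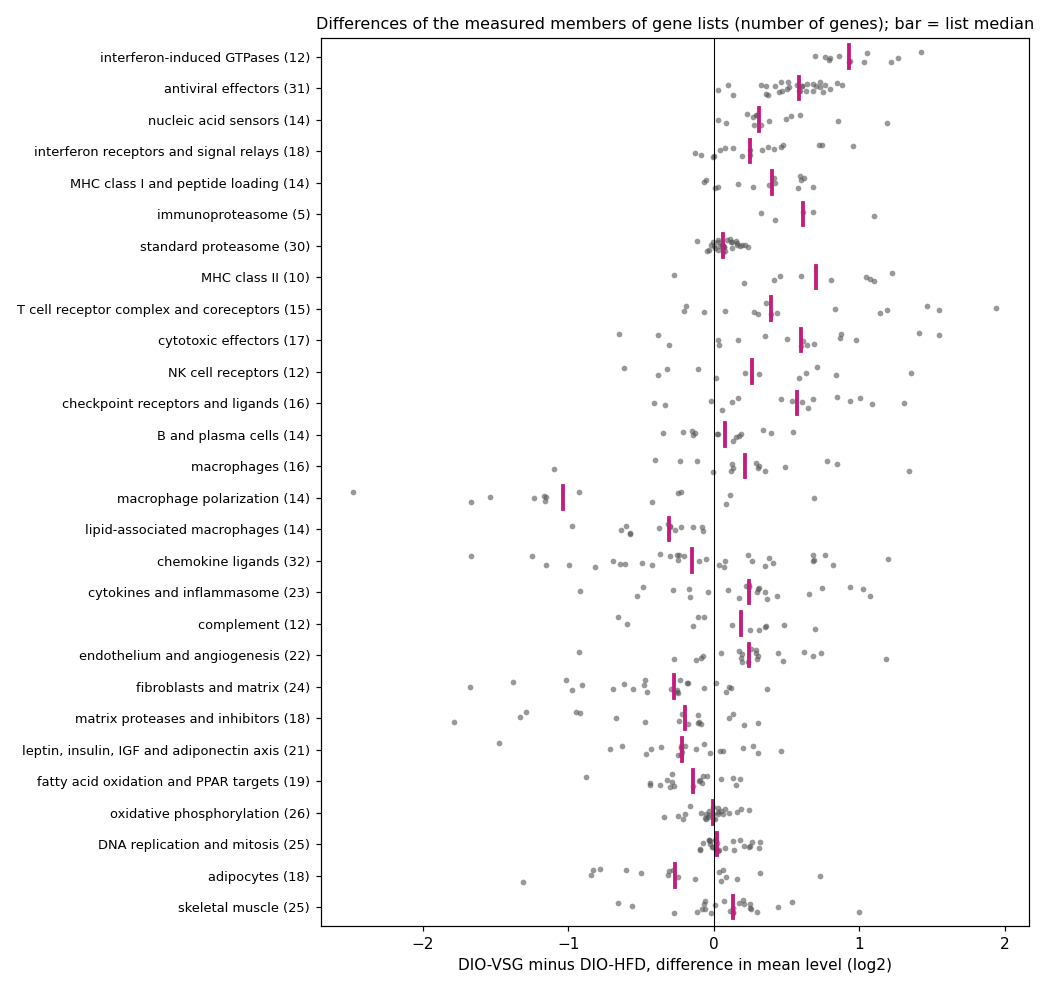
Difference in mean level, DIO-VSG minus DIO-HFD (log2, horizontal axis), of each measured member (points) of 28 gene lists (rows, number of genes in parentheses), with the list median as a bar. All 12 interferon-induced GTPases and all 31 antiviral effectors lie right of 0, and the 14 genes of lipid-associated macrophages all lie left of it.

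Genes whose levels did not overlap between the groups made up a small share of all genes. With the 12 arrays in random order, a gene would separate in either direction with a probability of 0.002165. The shares found, 0.113% higher and 0.0923% lower, were together near that rate, so separation alone does not mark out a gene. Above the limit of low signal, 17 were higher (0.143% of 11886 genes) and 10 lower (0.0841%) in DIO-VSG. Several of the 17 belong to the interferon system. Irgm1 encodes a GTPase that drives autophagy of intracellular bacteria. Its lowest, median and highest levels were 14.32, 14.56 and 14.95 in DIO-VSG tumors, against 13.31, 13.84 and 14.29 in DIO-HFD tumors, a difference of 0.77 ± 0.25 (SE). DIO-VSG 4 was the highest tumor and DIO-HFD 5 the lowest. Stat2, the transcription factor that type I interferon receptors activate, was at 12.94, 13.27 and 13.43 in DIO-VSG tumors, against 12.01, 12.54 and 12.84 in DIO-HFD tumors (0.72 ± 0.22). The gap between the groups was narrow, with DIO-VSG 6 just above DIO-HFD 2. Ifih1 encodes MDA5, a sensor of long double-stranded RNA, and was at 13.53, 13.75 and 14.06 in DIO-VSG tumors, against 12.83, 13.23 and 13.52 in DIO-HFD tumors (0.59 ± 0.22). Ifi207, of the PYHIN family of DNA-binding proteins, was at 14.57, 14.91 and 15.45 in DIO-VSG tumors, against 13.79, 14.34 and 14.53 in DIO-HFD tumors (0.67 ± 0.18). For both genes the lowest DIO-VSG tumor, replicate 6, lay just above the highest DIO-HFD tumor.

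The start sites of these genes were searched for a sequence that interferon-activated factors are known to bind. The interferon-stimulated response element (ISRE) was searched as GAAA, 2 bases of any kind and GAAA on both strands, from 250 bases before to 50 bases after each start site in RefSeq (GRCm38.p6). It occurred in 3.94% of the 15691 tested genes with a listed promoter. Among genes that did not overlap, 5 of the 18 higher ones with a promoter held it (Ifi207, Ifih1, Irgm1, Pilrb1 and Stat2) and 0 of the 13 lower ones. All 7 of the interferon-induced GTPases with a promoter held it, as did 12 of 23 antiviral effectors, against 2 of 24 subunits of the standard proteasome and 0 of 9 genes of macrophage polarization. At a share of 3.94%, 0 of 9 or 0 of 13 is not a low count. A second motif, GAS (TTCNNNGAA, N for any base), occurred in 9.02% of all genes. It was found in 4 of 7 GTPases, 6 of 23 antiviral effectors, 1 of 24 standard proteasome genes and 2 of 9 polarization genes. These counts describe letters in a window and not bound sites. The GTPase and antiviral lists were written as interferon-induced genes, so their high shares were largely fixed by that choice. They add no support to the differences in level. The 4 promoters below were chosen because they held a match and belong to non-overlapping genes of the interferon lists or the PYHIN family, with the matches in capitals, and the promoter of Helz2, also non-overlapping, held none. Irgm1 lies on chromosome 11 (chr11:48871371-48871670, minus strand), Ifi207 on chromosome 1 (chr1:173741760-173742059, minus strand), Ifih1 on chromosome 2 (chr2:62646206-62646505, minus strand) and Stat2 on chromosome 10 (chr10:128270248-128270547, plus strand). The overlapping pair of matches in Irgm1 begins 30 bases before its start site and the match in Ifi207 41 bases before, whereas that in Ifih1 lies 33 bases into the transcript and that in Stat2, on the opposite strand, 222 bases before the start.
Irgm1: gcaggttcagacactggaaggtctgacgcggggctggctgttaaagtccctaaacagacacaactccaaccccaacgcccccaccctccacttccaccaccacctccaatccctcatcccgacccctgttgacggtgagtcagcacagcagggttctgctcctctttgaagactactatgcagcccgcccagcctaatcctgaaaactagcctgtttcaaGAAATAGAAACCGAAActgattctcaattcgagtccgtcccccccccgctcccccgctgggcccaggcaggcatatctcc
Ifi207: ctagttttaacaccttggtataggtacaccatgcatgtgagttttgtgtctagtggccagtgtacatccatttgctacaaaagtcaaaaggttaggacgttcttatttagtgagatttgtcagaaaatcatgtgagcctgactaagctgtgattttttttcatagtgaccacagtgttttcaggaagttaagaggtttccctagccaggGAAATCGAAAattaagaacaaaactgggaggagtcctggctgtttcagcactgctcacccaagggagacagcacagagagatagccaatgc
Ifih1: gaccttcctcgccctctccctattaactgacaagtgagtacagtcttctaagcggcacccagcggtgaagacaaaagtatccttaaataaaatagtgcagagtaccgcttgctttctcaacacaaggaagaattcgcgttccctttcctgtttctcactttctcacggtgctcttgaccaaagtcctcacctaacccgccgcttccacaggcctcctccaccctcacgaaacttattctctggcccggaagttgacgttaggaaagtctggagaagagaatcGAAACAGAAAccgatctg
Stat2: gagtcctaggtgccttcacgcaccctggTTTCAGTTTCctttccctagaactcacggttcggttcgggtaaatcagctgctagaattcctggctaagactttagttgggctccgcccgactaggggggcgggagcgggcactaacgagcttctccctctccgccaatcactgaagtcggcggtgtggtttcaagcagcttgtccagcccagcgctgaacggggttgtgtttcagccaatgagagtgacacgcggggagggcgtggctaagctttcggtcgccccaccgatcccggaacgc

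The other non-overlapping higher genes included 3 members of the interferon response. Parp14, an ADP-ribosyltransferase that acts in macrophages, was at 11.11, 11.36 and 11.80 in DIO-VSG tumors, against 10.05, 10.63 and 11.03 in DIO-HFD tumors (0.75 ± 0.26). Parp10, a related enzyme that adds single ADP-ribose units, was at 12.77, 13.0 and 13.23 in DIO-VSG tumors, against 11.59, 12.23 and 12.64 in DIO-HFD tumors (0.77 ± 0.20, limma adjusted p = 0.86). Helz2, an interferon-induced helicase that can also coactivate PPAR receptors, was at 12.47, 12.64 and 12.78 in DIO-VSG tumors, against 11.49, 11.89 and 12.46 in DIO-HFD tumors (0.68 ± 0.28). The DIO-VSG tumors spanned a narrow range for Helz2 while the DIO-HFD tumors spread widely, with DIO-HFD 2 next to the DIO-VSG values. Pilrb1, an activating receptor of myeloid and NK cells, was at 6.80, 7.41 and 8.48 in DIO-VSG tumors, against 6.12, 6.60 and 6.72 in DIO-HFD tumors (0.94 ± 0.40). Nxpe4 had the smallest p of the non-overlapping genes named here, at 7.10, 7.42 and 7.89 in DIO-VSG tumors, against 5.79, 6.68 and 7.01 in DIO-HFD tumors (0.97 ± 0.24, limma adjusted p = 0.86). Hamp2, of the hepcidin family, and Gja6, a connexin, also did not overlap, at low levels (means of 5.23 and 5.34 in DIO-VSG tumors and 4.46 and 4.63 in DIO-HFD tumors). Hamp2 was above 5 only in DIO-VSG 2 and 3, at 6.60 and 5.70, and its difference of 0.77 was 0.50 without DIO-VSG 2.

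**Figure D2:**
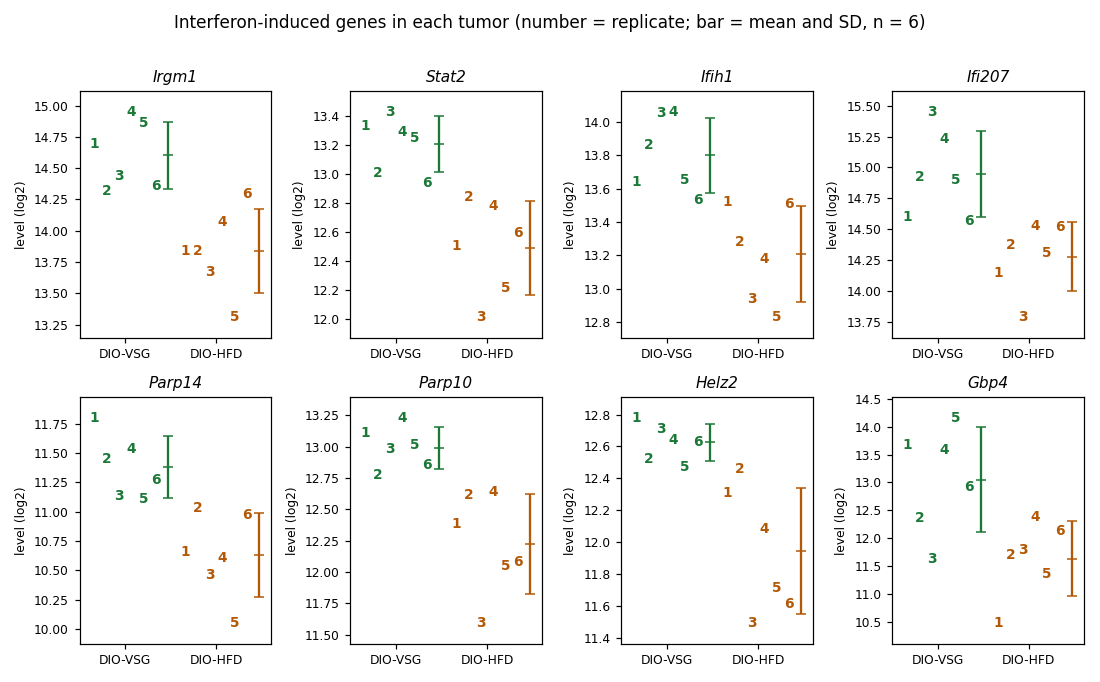
Level (log2, vertical axis) of 8 interferon-induced genes in each DIO-VSG tumor (left) and DIO-HFD tumor (right); numbers are replicates and bars the mean and SD (n = 6). The groups do not overlap in 7 of the panels, and in the panel of Gbp4 DIO-VSG 2 and 3 lie among the DIO-HFD tumors.

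Of the genes with no overlap that were lower in DIO-VSG, Mmp12 differed most. It encodes macrophage elastase, which breaks down elastin. Its levels were 13.15, 13.54 and 13.74 in DIO-VSG tumors, against 14.36, 15.09 and 16.75 in DIO-HFD tumors, 3.44-fold lower (-1.78 ± 0.55, limma adjusted p = 0.86). The 6 DIO-VSG tumors lay close together, and the highest DIO-HFD tumor was replicate 5, without which the difference was -1.49. Hebp1, a heme-binding protein from which a chemotactic peptide is cut, was at 10.33, 10.53 and 10.85 in DIO-VSG tumors, against 10.95, 11.34 and 11.54 in DIO-HFD tumors (-0.74 ± 0.22). Ackr3, a receptor that scavenges the chemokine CXCL12, was at 10.94, 11.21 and 11.46 in DIO-VSG tumors, against 11.49, 11.62 and 11.88 in DIO-HFD tumors (-0.44 ± 0.17). Both genes had narrow ranges in both groups. Smaller differences were found for Lrp12, a receptor of the LDL receptor family (-0.50), Hspa4l, a heat shock protein of the HSP70 group (-0.47), Fbh1, a DNA helicase of homologous recombination (-0.47), Camk1, a calcium- and calmodulin-dependent kinase (-0.41), and Mtch1, a protein of the outer mitochondrial membrane (-0.35).

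The smallest p values of the comparison belonged to genes of several functions. Endog, a mitochondrial nuclease, was at 5.87, 6.42 and 6.85 in DIO-VSG tumors, against 4.85, 5.43 and 6.06 in DIO-HFD tumors (0.89 ± 0.21, limma adjusted p = 0.86), with only DIO-VSG 6 inside the DIO-HFD range. Acss1, which makes acetyl-CoA from acetate in mitochondria, was at 8.11, 9.36 and 10.27 in DIO-VSG tumors, against 7.10, 8.04 and 8.88 in DIO-HFD tumors (1.32 ± 0.34, limma adjusted p = 0.86). Aldh1b1, a mitochondrial aldehyde dehydrogenase, was 2.11-fold higher (1.08 ± 0.29), and Il15ra, the receptor chain that presents IL-15 to T and NK cells, 1.45-fold higher (0.54 ± 0.15). DIO-VSG 5 was the highest tumor for Endog, Acss1 and Aldh1b1. Fzd5, a Wnt receptor, was higher by 0.66 ± 0.19. On the lower side, Slc22a23, a transporter of unassigned substrate, was at 6.28, 6.96 and 7.82 in DIO-VSG tumors, against 7.63, 8.09 and 8.91 in DIO-HFD tumors (-1.21 ± 0.29, limma adjusted p = 0.86). Mios, a subunit of the GATOR2 complex that relays amino acid supply to mTORC1, differed by -0.75 ± 0.19, with 1 DIO-VSG tumor, replicate 1, above the lowest DIO-HFD tumor. Zfp423, a transcription factor of preadipocyte commitment, differed by -1.36 ± 0.38, Pnck, a calmodulin-dependent kinase, by -1.23 ± 0.32, Npl, an enzyme that breaks down sialic acid, by -1.75 ± 0.52, and Qdpr, which recycles tetrahydrobiopterin, by -0.56 ± 0.17.

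Interferon-induced GTPases were higher together. All 12 measured members were higher, 10 of them at p below 0.05 (background 2.92%), and the median difference was 0.93, against -0.01 over all genes. Their mean level was 12.17, 12.95 and 13.51 in DIO-VSG tumors, against 11.45, 11.83 and 12.47 in DIO-HFD tumors, and 5 of 6 DIO-VSG tumors lay above every DIO-HFD tumor. DIO-VSG 3 was the exception. Gbp4, a guanylate-binding protein, was at 11.63, 13.25 and 14.16 in DIO-VSG tumors, against 10.47, 11.73 and 12.37 in DIO-HFD tumors, 2.68-fold higher (1.42 ± 0.47, limma adjusted p = 0.86). Gbp9 was at 10.97, 11.94 and 12.59 in DIO-VSG tumors, against 9.87, 10.65 and 11.29 in DIO-HFD tumors (1.27 ± 0.36). For both genes DIO-VSG 3 was the lowest of its group, inside the DIO-HFD range. Gbp7, another member of the family, differed by 0.69 ± 0.21. The counts were 9 to 12 when single arrays were left out, 10 without DIO-VSG 1, 12 by source name and 9 without the muscle-rich arrays (skeletal muscle list mean above 9, DIO-VSG 2 and 4 and DIO-HFD 1 among them).

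Antiviral effectors, the proteins that block viral replication or modify interferon-induced targets, were higher in 31 of 31 cases, with 13 at p below 0.05 and a median of 0.59. Dtx3l, a ubiquitin ligase that works with PARP9, was at 11.19, 11.52 and 11.75 in DIO-VSG tumors, against 10.32, 10.84 and 11.30 in DIO-HFD tumors (0.68 ± 0.21, limma adjusted p = 0.86). Trim30a, an inducible regulator of innate signaling in mice, differed by 0.70 ± 0.22, and Bst2, which tethers budding virus to the cell surface, by 0.64 ± 0.22. DIO-VSG 1 was the lowest of its group for Trim30a and DIO-VSG 2 for Bst2. Isg15, a ubiquitin-like protein conjugated to targets after interferon exposure, was 1.84-fold higher (0.88 ± 0.37), and Oas3, a synthase that activates RNase L, 1.80-fold higher (0.85 ± 0.40). The list mean was 12.16, 12.37 and 13.02 in DIO-VSG tumors, against 11.29, 12.16 and 12.23 in DIO-HFD tumors. DIO-HFD 3 and 5 were the lowest tumors, at 11.29 and 11.48, while the other 4 DIO-HFD tumors, between 12.13 and 12.23, lay at the low end of the DIO-VSG range. The count at p below 0.05 was 6 without DIO-HFD 3, 6 without DIO-HFD 5 and 8 without DIO-VSG 4, and 10 without DIO-VSG 1.

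Among nucleic acid sensors 14 of 14 were higher, 4 at p below 0.05, with a median of 0.31. Tlr9, the endosomal receptor for unmethylated DNA, was at 8.75, 9.71 and 10.34 in DIO-VSG tumors, against 6.78, 8.61 and 8.96 in DIO-HFD tumors (1.19 ± 0.47). DIO-HFD 3 stood apart at the low end, and the difference was 0.87 without it. Zbp1, a sensor of Z-form nucleic acids, differed by 0.85 ± 0.35, and Adar, which edits double-stranded RNA, by 0.49 ± 0.19. Without DIO-HFD 3 the count was 2. The receptors and relays that carry the interferon signal were less uniform: 15 of 18 were higher, 2 at p below 0.05, with a median of 0.25. Irf1, a transcription factor downstream of interferon gamma, was at 12.67, 13.15 and 14.05 in DIO-VSG tumors, against 11.63, 12.29 and 12.92 in DIO-HFD tumors (0.96 ± 0.32, limma adjusted p = 0.86). Irf7, which amplifies the type I response, differed by 0.74 ± 0.39, and by 0.45 without DIO-HFD 3, where it was at 11.65. The list count was 4 without DIO-HFD 4.

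Antigen processing differed between the inducible and the constitutive proteasome. All 5 immunoproteasome genes were higher, with 4 at p below 0.05 and a median of 0.61, whereas of 30 standard proteasome genes 25 were higher by at most 0.23, with 0 at p below 0.05 and a median of 0.07. Psmb10, a catalytic subunit exchanged into the immunoproteasome, was at 10.69, 11.28 and 12.30 in DIO-VSG tumors, against 9.70, 10.31 and 11.12 in DIO-HFD tumors (1.10 ± 0.34, limma adjusted p = 0.86). DIO-VSG 4 and 5 were the highest, and only DIO-VSG 2 lay inside the DIO-HFD range. Psme2, a part of the PA28 activator, differed by 0.68 ± 0.23, and Psmb9, a further catalytic subunit, by 0.61 ± 0.28. Psmd4, a ubiquitin receptor of the standard particle, differed by 0.22 ± 0.11. The immunoproteasome count was 2 without DIO-VSG 1, 4 or 5 or without DIO-HFD 3, 5 or 6. Among MHC class I and peptide loading genes 12 of 14 were higher, 4 at p below 0.05, with a median of 0.40. Tapbp, or tapasin, which loads peptides onto class I molecules, differed by 0.59 ± 0.23, H2-T22 by 0.62 ± 0.27 and H2-Q4 by 0.58 ± 0.27, the last a class I gene of the Q region. H2-T24, a class I gene of the T region, had the smallest p of the class I genes named, at 8.43, 8.59 and 9.53 in DIO-VSG tumors, against 7.34, 7.88 and 8.47 in DIO-HFD tumors (0.92 ± 0.27). Class I genes share long stretches of sequence, so their probes cannot be taken as fully separate. The class I count ranged from 1 (without DIO-VSG 5 or DIO-HFD 2, 3 or 6) to 7 (without DIO-HFD 4), and was 2 without DIO-VSG 3 or DIO-HFD 5.

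MHC class II genes, which present antigen to CD4+ T cells, were higher in 9 of 10 cases with a median of 0.70, but 0 passed p below 0.05. H2-Aa, a class II chain, was at 13.13, 13.77 and 15.10 in DIO-VSG tumors, against 10.52, 13.29 and 14.52 in DIO-HFD tumors (1.23 ± 0.64). DIO-HFD 1 and 3 were far lower, at 10.88 and 10.52, while the other 4 DIO-HFD tumors lay between 12.97 and 14.52, mixed with the DIO-VSG values. Without DIO-HFD 3 it was 0.79. H2-Ab1 had a similar spread (1.10 ± 0.63, and 0.73 without DIO-HFD 1 or without DIO-HFD 3), and H2-DMa, which helps to load class II peptides, differed by 1.07 ± 0.55. The count at p below 0.05 was 2 without DIO-VSG 1, 2 without DIO-HFD 5, 1 without DIO-HFD 6, 3 without DIO-HFD 4 and 7 by source name.

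T cell genes were higher in DIO-VSG on average, with broad overlap. Of 15 genes of the T cell receptor complex and its coreceptors 12 were higher, 4 at p below 0.05, with a median of 0.39. Cd8a, a chain of the receptor by which killer T cells bind class I molecules, was at 6.55, 7.34 and 9.97 in DIO-VSG tumors, against 3.67, 5.87 and 7.85 in DIO-HFD tumors (1.94 ± 0.76, limma adjusted p = 0.874). Its partner Cd8b1 differed by 1.19 ± 0.54 and Cd6, a coreceptor that tunes T cell activation, by 1.14 ± 0.48. DIO-VSG 5 was the highest of all 12 tumors for each of the 3 genes. Cd3e was at 7.91, 8.52 and 11.66 in DIO-VSG tumors, against 5.08, 7.62 and 9.41 in DIO-HFD tumors, and its difference of 1.55 ± 0.80 was 1.02 without DIO-VSG 5. Cd3g, another chain of the receptor complex, differed by 1.47 ± 0.65. The list count at p below 0.05 was 0 without DIO-VSG 5 and 0 without DIO-HFD 1, and 2 without DIO-VSG 4 or without DIO-HFD 3, which also took the median to 0.25.

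Genes of killing followed the same tumors. Of 17 cytotoxic effectors, 12 of them above the limit of low signal, 14 were higher and 3 lower, the lowest by -0.65. The median was 0.60, and 1 gene had a p below 0.05. That gene was Nkg7, a protein of cytotoxic granules, at 7.24, 7.69 and 10.23 in DIO-VSG tumors, against 5.52, 6.38 and 8.12 in DIO-HFD tumors (1.55 ± 0.64). Ifng, interferon gamma itself, was at 5.38, 6.48 and 9.07 in DIO-VSG tumors, against 4.42, 5.33 and 6.53 in DIO-HFD tumors (1.41 ± 0.70, limma adjusted p = 0.883). Gzmb, the protease granzyme B, differed by 0.97 ± 0.50. DIO-VSG 5 again had the highest value for each of these 3 genes. The cytotoxic count was 0 without DIO-VSG 5 or DIO-HFD 1, 2 without DIO-VSG 3, CON-LFD 4 or CON-LFD 5, 3 without DIO-VSG 2, DIO-HFD 4, DIO-HFD 5 or DIO-LFD 1, and 4 without DIO-HFD 6. Among 12 NK cell receptors 8 were higher and 4 lower (median 0.26, lowest -0.62). The 1 at p below 0.05 was the activating receptor Klrk1 (1.35 ± 0.53). This NK count was 0 without DIO-VSG 4, DIO-VSG 5 or DIO-HFD 3 and 2 without DIO-HFD 5. The median was 0.12 without DIO-VSG 5, 0.15 without DIO-VSG 4 and 0.43 without DIO-VSG 1.

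Checkpoint receptors and their ligands, which restrain T cells, were higher in 13 of 16 cases, 5 at p below 0.05, with a median of 0.57. Havcr2, which encodes TIM-3, was at 9.80, 10.43 and 11.25 in DIO-VSG tumors, against 8.54, 9.54 and 10.35 in DIO-HFD tumors (1.01 ± 0.37). Cd274, which encodes the ligand PD-L1, was at 12.78, 13.13 and 13.85 in DIO-VSG tumors, against 11.95, 12.58 and 12.80 in DIO-HFD tumors (0.68 ± 0.31), and 5 of 6 DIO-VSG tumors lay above every DIO-HFD tumor. Pdcd1, the PD-1 receptor, differed by 1.31 ± 0.60, Lag3 by 1.09 ± 0.45 and Tigit by 0.61 ± 0.27. The count was 1 without DIO-VSG 5, 2 without DIO-HFD 3, where the median was 0.38, and 3 without DIO-VSG 2, DIO-VSG 4 or DIO-HFD 1. In the list of regulatory T cell genes 6 of 9 were higher (median 0.17), with 1 at p below 0.05, the cytokine Il10 (1.02 ± 0.40). That count was 0 without DIO-VSG 5 or DIO-HFD 3, and the median had no stable sign. It was -0.003 without DIO-VSG 4 and -0.01 without the muscle-rich arrays, 0.02 without DIO-HFD 5, 0.11 without DIO-HFD 1 or DIO-HFD 3, 0.25 without DIO-VSG 3 and 0.34 without DIO-HFD 6. B and plasma cell genes had a median of 0.08, with 0 of 14 at p below 0.05 and only 6 above the limit of low signal.

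The lists of macrophage genes differed in direction on average. General macrophage genes were higher in 11 of 16 cases (median 0.21), 3 at p below 0.05. The 5 lower members reached a difference of -1.10. The list means of the groups overlapped widely, with 2 of 6 DIO-VSG tumors above every DIO-HFD tumor. Fcgr4, an activating antibody receptor, was at 10.79, 11.77 and 13.21 in DIO-VSG tumors, against 9.79, 10.60 and 11.73 in DIO-HFD tumors (1.34 ± 0.49, limma adjusted p = 0.86). Fcgr1, the high-affinity antibody receptor, differed by 0.78 ± 0.33 and Mpeg1, a pore-forming protein of phagocytes, by 0.84 ± 0.37. Fcgr2b, the inhibitory antibody receptor, was at a lower mean in DIO-VSG tumors (-0.40 ± 0.22, limma adjusted p = 0.883). The count was 1 without DIO-VSG 3, 4 or 5 or DIO-HFD 3, and the median was 0.02 without DIO-HFD 3, 0.09 without DIO-VSG 5, 0.11 without DIO-VSG 3 and 0.47 without DIO-VSG 1.

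Genes of macrophage polarization, most of them markers of macrophages exposed to IL-4 or IL-13, differed the other way. Of 14 measured, 11 were lower in DIO-VSG, 4 of them at p below 0.05 (background 2.67%), with a median of -1.04. Mgl2, a C-type lectin that binds galactose, was at 4.35, 5.25 and 6.41 in DIO-VSG tumors, against 6.21, 7.45 and 10.61 in DIO-HFD tumors, 5.57-fold lower (-2.48 ± 0.63, limma adjusted p = 0.86). Only DIO-VSG 3 lay above the lowest DIO-HFD tumor. Its relative Clec10a was at 6.63, 7.85 and 8.21 in DIO-VSG tumors, against 7.43, 8.85 and 10.08 in DIO-HFD tumors (-1.16 ± 0.46). Mrc1, the mannose receptor, was at 10.42, 12.54 and 13.84 in DIO-VSG tumors, against 12.96, 13.61 and 14.76 in DIO-HFD tumors (-1.24 ± 0.46). Ccl22, which attracts cells that carry the receptor CCR4, was at 6.17, 7.28 and 8.0 in DIO-VSG tumors, against 7.31, 8.65 and 11.64 in DIO-HFD tumors (-1.67 ± 0.60). For all 4 genes DIO-VSG 1, the tumor with conflicting labels, was the lowest and DIO-HFD 5, the tumor highest in adipocyte genes, the highest. Without DIO-VSG 1 the differences of Mgl2, Clec10a, Mrc1 and Ccl22 were -2.29, -0.98, -0.83 and -1.46, and without DIO-HFD 5 they were -1.91, -0.89, -1.03 and -1.11. The median of the list was -0.68 without DIO-VSG 1 and -0.34 without DIO-HFD 5, and its count was 2 without DIO-VSG 1 and 3 without DIO-HFD 5. With the adipocyte list mean as a covariate the list median was -0.94, with 11 of 14 genes lower, 6 of them at p below 0.05. The part of the fat tissue in these values was not tested further.

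**Figure D3:**
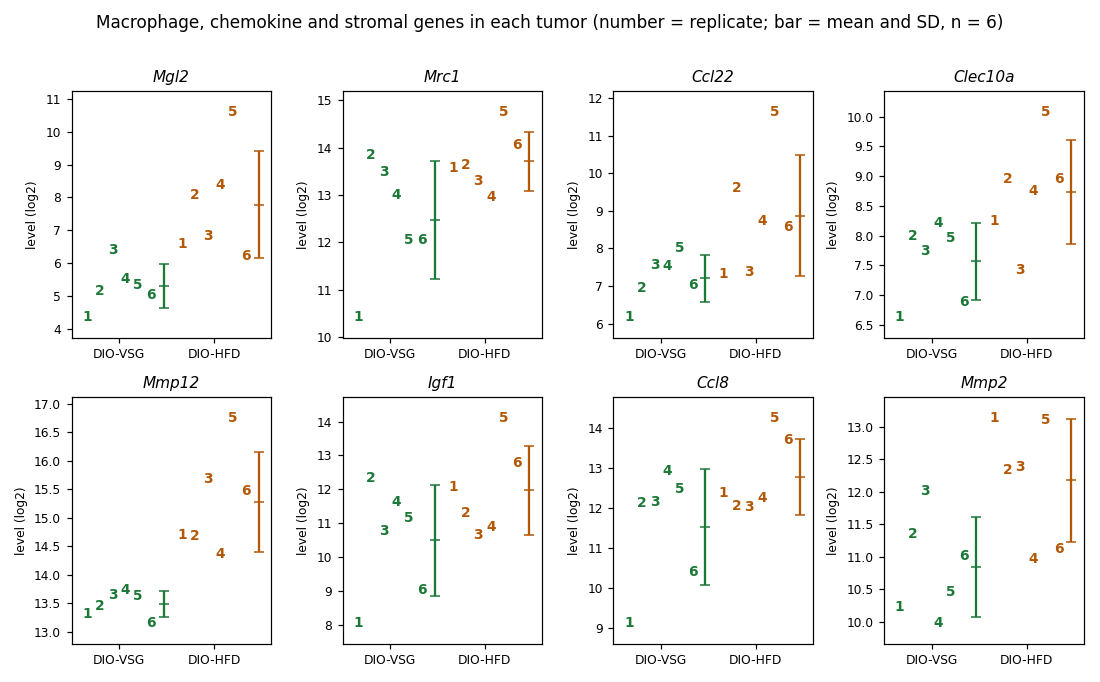
Level (log2, vertical axis) of 8 macrophage, chemokine, growth factor and matrix genes in each DIO-VSG tumor (left) and DIO-HFD tumor (right); numbers are replicates and bars the mean and SD (n = 6). Mmp12 does not overlap between the groups, and DIO-HFD 5 is the highest tumor for 7 of the 8 genes.

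Lipid-associated macrophage genes, a program of fat-laden macrophages in obese fat tissue, were lower in 14 of 14 cases, with a median of -0.31 and 0 at p below 0.05. Lgals3, or galectin-3, was at 15.13, 15.51 and 15.93 in DIO-VSG tumors, against 15.55, 15.88 and 16.44 in DIO-HFD tumors (-0.38 ± 0.20, limma adjusted p = 0.883). Cd36, a receptor for fatty acids, was at 8.30, 10.63 and 10.94 in DIO-VSG tumors, against 9.54, 10.36 and 14.68 in DIO-HFD tumors (-0.98 ± 0.71), and its difference was -0.24 without DIO-HFD 5 and -0.63 without DIO-VSG 1. The list mean was 12.09, 12.91 and 13.22 in DIO-VSG tumors, against 12.77, 12.94 and 14.57 in DIO-HFD tumors. Apart from DIO-HFD 5 at the top and DIO-VSG 1 and 6 at the bottom, the tumors of both groups lay together. Of the 14 genes, 10 were lower without DIO-HFD 5 and 11 without DIO-VSG 1 or by source name. The medians were -0.20 without DIO-HFD 5, -0.24 without DIO-VSG 1 and -0.21 by source name. Several of these genes, such as Cd36, are also used by adipocytes.

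Secreted signals were mixed. Of 32 chemokines 14 were higher and 18 lower, with 0 higher and 4 lower at p below 0.05. Ccl8, which attracts monocytes and T cells, was at 9.12, 12.14 and 12.92 in DIO-VSG tumors, against 12.04, 12.32 and 14.26 in DIO-HFD tumors (-1.25 ± 0.54), and differed by -0.77 without DIO-VSG 1. Ccl7, also a monocyte attractant, differed by -0.82 ± 0.35. The count of 4 was 2 without DIO-VSG 1, DIO-VSG 2, DIO-HFD 5 or DIO-HFD 6. Chemokine differences ranged from -1.67 to 1.20, with a median of -0.15. By source name 3 chemokines were higher and 2 lower at p below 0.05, with a median of 0.02. In that grouping Ccl8 differed by -0.71 and Ccl7 by -0.56. Among cytokine and inflammasome genes 16 of 23 were higher. Pycard, the ASC adaptor of inflammasomes, differed by 1.07 ± 0.51 and Il27, a cytokine of the IL-12 family, by 0.93 ± 0.39, while Osm, oncostatin M, differed by -0.92 ± 0.40 with its highest value, 7.71, in DIO-HFD 6. The count of 3 genes higher at p below 0.05 in that list was 0 without DIO-VSG 5 or without DIO-HFD 3, and the count of 1 lower was 0 without DIO-VSG 1, DIO-VSG 2, DIO-VSG 5 or DIO-HFD 6.

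**Figure D4:**
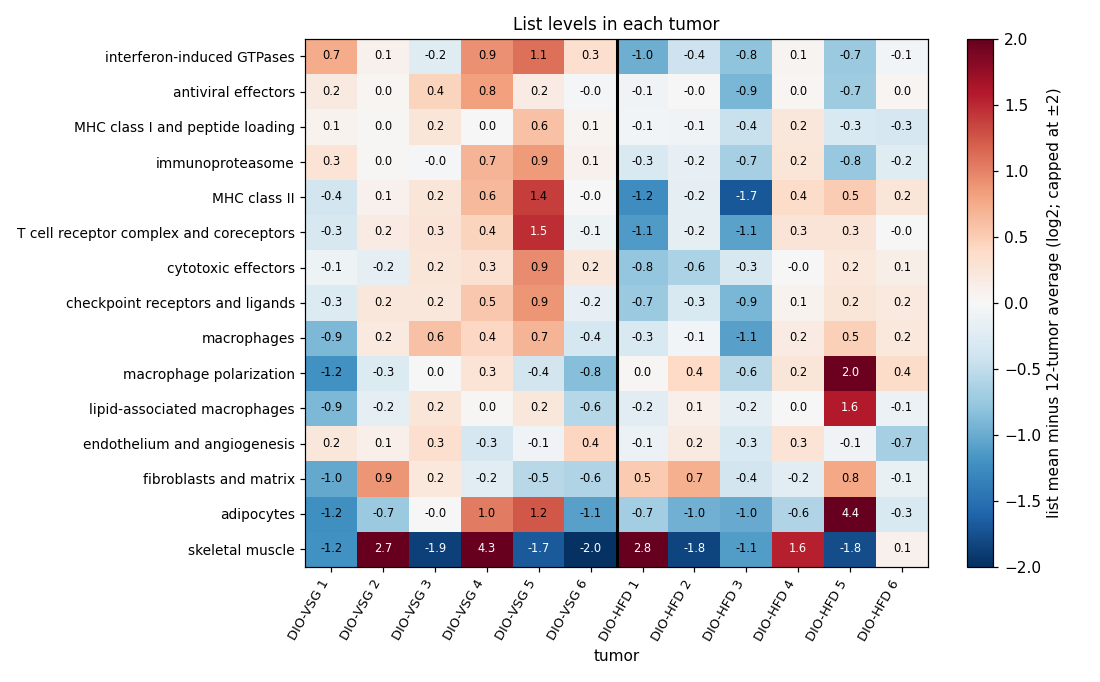
Mean level of 15 gene lists (rows) in each tumor (columns, DIO-VSG left and DIO-HFD right), as the difference from the average over the 12 tumors (log2; color capped at 2 in either direction, printed values uncapped). DIO-VSG 5 is highest in T cell genes and DIO-HFD 3 low in the interferon, antigen presentation, T cell and macrophage lists, DIO-HFD 5 is high in adipocyte and macrophage polarization genes, and skeletal muscle genes are high in DIO-VSG 2 and 4 and in DIO-HFD 1 and 4.

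Hormone and growth factor genes bear on the fat-linked signals that the operation is meant to change. Of 21 genes of the leptin, insulin, IGF and adiponectin axis 15 were lower, 2 at p below 0.05, with a median of -0.22. Igf1, a growth factor that stromal cells and macrophages also make, was at 8.04, 10.96 and 12.34 in DIO-VSG tumors, against 10.66, 11.68 and 14.11 in DIO-HFD tumors (-1.48 ± 0.64, limma adjusted p = 0.883). The groups overlapped widely, with DIO-VSG 1 and 6 lowest and DIO-HFD 5 highest, and the difference was -0.99 without DIO-VSG 1 and -1.05 without DIO-HFD 5. Adipor2, an adiponectin receptor, was at 11.80, 12.22 and 12.86 in DIO-VSG tumors, against 12.37, 12.61 and 13.25 in DIO-HFD tumors (-0.43 ± 0.20). The list count was 1 without any one of the 6 DIO-VSG tumors or DIO-HFD 3, and 0 without DIO-HFD 5, and the median was -0.10 without DIO-HFD 5 and -0.14 without DIO-VSG 4. Receptors for incretins, bile acids and ghrelin, hormones that sleeve gastrectomy is known to alter, were mostly at background, with 5 of 17 above the limit of low signal and a median of -0.06.

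In the stroma, matrix genes were lower and vessel genes higher on average. Of 24 fibroblast and matrix genes 19 were lower (median -0.28), 2 at p below 0.05. Dpt, or dermatopontin, a matrix protein of fibroblasts, was at 7.52, 9.26 and 10.92 in DIO-VSG tumors, against 9.33, 10.85 and 13.11 in DIO-HFD tumors (-1.68 ± 0.69). Pi16, a marker of a progenitor-like fibroblast, differed by -0.97 ± 0.39 below the limit of low signal, and Dcn, the proteoglycan decorin, by -1.38 ± 0.82. DIO-VSG 1 was the lowest tumor for Dpt and Dcn, and without it the list count was 0 and the difference of Dcn -0.84. The count was 1 without DIO-VSG 6 or DIO-HFD 5, and the list median ranged from -0.61 without DIO-VSG 2 to -0.09 without DIO-HFD 2, and was -0.46 without DIO-HFD 6, -0.45 without DIO-HFD 3 and -0.44 without DIO-HFD 4. Col3a1, a chain of type III collagen, differed by -0.69 ± 0.34, and Pdpn, or podoplanin, a glycoprotein of fibroblasts and lymphatic vessels, by -1.17 ± 0.44. Of 18 matrix proteases and inhibitors 14 were lower (median -0.20), with 2 at p below 0.05, Mmp12 and Mmp2, and the median was -0.12 without DIO-VSG 4. Mmp2, a gelatinase of stromal cells, was at 9.98, 10.73 and 12.02 in DIO-VSG tumors, against 10.97, 12.37 and 13.14 in DIO-HFD tumors (-1.33 ± 0.43, limma adjusted p = 0.86), with 3 DIO-VSG tumors below every DIO-HFD tumor.

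Of 22 endothelial genes 17 were higher (median 0.24), 2 at p below 0.05. The other 5 were lower, the lowest by -0.925, so the genes named below do not stand for the whole list. Plvap, which forms the diaphragms of fenestrated vessels, was at 7.49, 8.96 and 10.11 in DIO-VSG tumors, against 6.36, 7.73 and 9.30 in DIO-HFD tumors (1.19 ± 0.46, limma adjusted p = 0.874). Pecam1, the adhesion protein CD31, was at 10.48, 10.98 and 11.52 in DIO-VSG tumors, against 10.01, 10.28 and 10.83 in DIO-HFD tumors (0.62 ± 0.27). DIO-VSG 6 was the highest tumor for both genes and DIO-HFD 6 the lowest. Kdr, the main receptor for VEGF, differed by 0.68 ± 0.34. The count was 0 without DIO-VSG 6 or DIO-HFD 6, 1 without DIO-VSG 1, DIO-HFD 1 or DIO-HFD 3, and 6 without DIO-VSG 4, and the median was 0.15 without DIO-VSG 6, 0.14 without DIO-HFD 6 and 0.42 without DIO-VSG 4.

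Lists of growth and energy genes, which cancer cells use, had medians near 0. DNA replication and mitosis genes had a median of 0.02 over 25 genes, MYC and growth genes 0.04 over 19, oxidative phosphorylation -0.01 over 26, cytosolic ribosome -0.03 over 20 and hypoxia and glycolysis -0.06 over 23. With single tumors left out these medians lay between -0.18 (hypoxia without DIO-HFD 5) and 0.11 (DNA replication without DIO-VSG 4). Only 2 genes of these lists had a p below 0.05, both higher and in the MYC and growth list, among them Nolc1, a nucleolar protein (0.49 ± 0.19, and 0.30 without DIO-HFD 6). That count was 1 when most single arrays of the series were left out. Hk2, a hexokinase, had the smallest p of the hypoxia list (-0.47 ± 0.26, limma adjusted p = 0.883). Of 19 genes of fatty acid oxidation and PPAR targets 15 were lower (median -0.14). Decr1, which prepares unsaturated fatty acids for oxidation, was at 9.0, 9.21 and 9.61 in DIO-VSG tumors, against 9.45, 9.71 and 10.03 in DIO-HFD tumors (-0.44 ± 0.15, limma adjusted p = 0.86), and Ech1, an isomerase of the same path, differed by -0.33 ± 0.16. Cholesterol and fatty acid synthesis genes had a median of 0.18 with 0 of 18 at p below 0.05, and Pmvk, a kinase of the mevalonate path, the smallest p (0.59 ± 0.29). That median was 0.10 without DIO-VSG 5 and 0.28 without DIO-VSG 4. Among p53 targets Sesn1, a stress-induced inhibitor of mTORC1, differed by -0.59 ± 0.22, the only gene of its list at p below 0.05, and that count was 0 without DIO-VSG 2. Fos, an immediate early gene that responds within minutes to stimulation or handling, was at 7.06, 8.44 and 9.05 in DIO-VSG tumors, against 6.58, 7.32 and 7.89 in DIO-HFD tumors (1.04 ± 0.32, limma adjusted p = 0.86), with DIO-VSG 1 alone inside the DIO-HFD range, and Nr4a1, also immediate early, differed by 0.72 ± 0.26. The median of the 19 immediate early and heat shock genes was -0.015, but it was 0.28 without DIO-HFD 4, with 15 higher and 4 at p below 0.05, 0.14 without DIO-VSG 3 and 0.10 without DIO-VSG 2.

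The DIO-LFD tumors set the operation with the low-fat diet against the low-fat diet without the operation. In the direct comparison of DIO-VSG with DIO-LFD, limma called 0 genes (0% called, smallest adjusted p = 0.9998), and 662 (3.39%) had an unadjusted p below 0.05. Interferon-induced GTPases differed by a median of 0.18 from DIO-LFD and antiviral effectors by -0.08. Macrophage polarization genes had a median of -1.12 against DIO-LFD. Mgl2 differed from DIO-LFD by -1.93 (limma adjusted p = 0.9998), Clec10a by -1.12 and Ccl8 by -1.23, and in the stroma Pdpn differed by -1.19 and Pecam1 by 0.93 (limma adjusted p = 0.9998). Beside these values stands the skeletal muscle list, with a median difference of -2.72 from DIO-LFD, and its part in them was not tested. Without DIO-VSG 1 the differences from DIO-LFD were -0.82 for the median of macrophage polarization, -1.74 for Mgl2, -0.94 for Clec10a, -0.75 for Ccl8, -0.95 for Pdpn and 0.91 for Pecam1. Without DIO-LFD 1 Clec10a differed by -0.63, the GTPase median was -0.24 and the antiviral median -0.32. By source name the polarization median was -0.30, Mgl2 differed by -1.15, Clec10a by -0.13, Ccl8 by -0.10, Pdpn by -0.47 and Pecam1 by 0.57, and the GTPase median was -0.29. Of the 8 muscle-rich arrays 2 were DIO-VSG and 1 DIO-HFD, and the others were DIO-LFD or CON-LFD tumors. Few DIO-LFD tumors remain without them, so the values of this setting rest on fewer tumors than those above. Without the muscle-rich arrays the polarization median was -0.68, Mgl2 differed by -1.28, Clec10a by -0.41 and Pecam1 by 0.71. In the same setting the endothelial median was 0.27 and the GTPase median -0.15. The GTPase median thus changed sign in 3 of these settings, so its difference from DIO-LFD had no stable sign. Set side by side, the median differences from DIO-HFD, whose arrays both comparisons share, were 0.93 in DIO-VSG and 0.77 in DIO-LFD for the GTPases and -1.04 in DIO-VSG and 0.09 in DIO-LFD for macrophage polarization. For endothelial genes they were 0.24 in DIO-VSG and -0.25 in DIO-LFD.

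The comparison was repeated without DIO-VSG 1, and with both arrays in the groups of their source names, which left 5 DIO-VSG tumors and 7 in the DIO-HFD group. Limma called 0 genes in each (smallest adjusted p = 0.714 without DIO-VSG 1 and 0.326 by source name). At an unadjusted p below 0.05, 683 genes were higher and 511 lower without DIO-VSG 1, and 855 higher and 552 lower by source name. The median of the GTPases was 0.94 without DIO-VSG 1 and 1.07 by source name, that of MHC class II genes 0.81 and 0.94, and that of macrophage polarization -0.68 and -0.80. DIO-VSG 1 had the lowest value of its group in the lists of macrophages (10.92), macrophage polarization (6.87), lipid-associated macrophages (12.09), fibroblasts and matrix (8.34) and adipocytes (5.22), while its GTPase mean of 13.15 was above every DIO-HFD tumor.

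**Figure D5:**
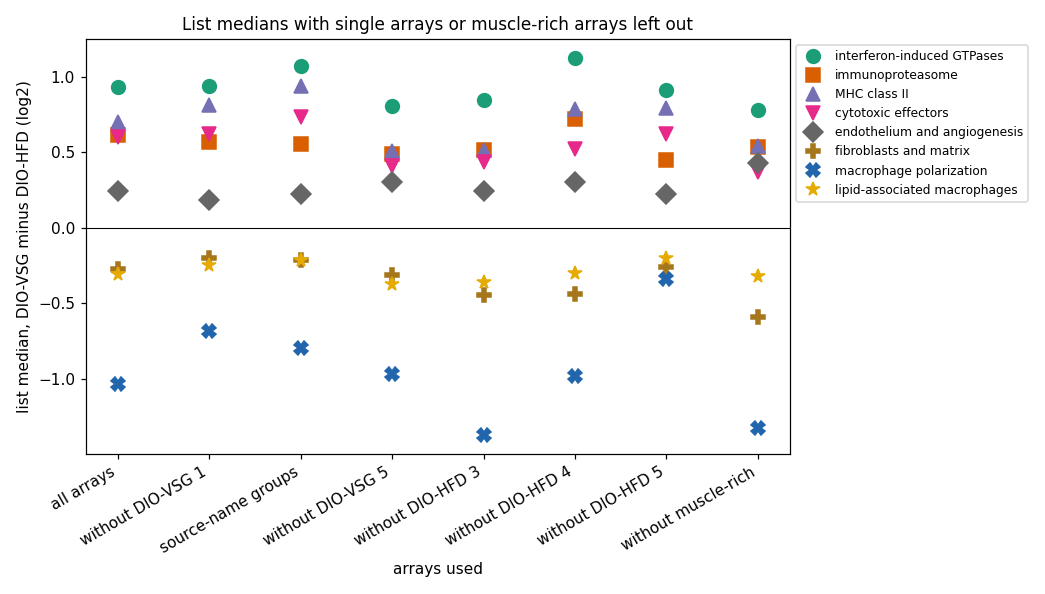
Median difference, DIO-VSG minus DIO-HFD (log2, vertical axis), of 8 gene lists (symbols) with all arrays and with the arrays named on the horizontal axis left out or regrouped by source name. The GTPase median stays between 0.78 and 1.13 and the macrophage polarization median between -1.37 and -0.34 in these settings.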

How the data were processed

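RNA of whole E0771 tumors was hybridised to Affymetrix Clariom S mouse arrays, 1 array per tumor. The deposited values are log2 signals that the authors background-corrected, normalized and summarized per probe set; no scanner intensities were used here. Of 22206 probe sets, 19572 carried 1 gene symbol and 2634 were unnamed here. Where a gene had several probe sets (55 genes), the one with the highest mean was kept, which left 19505 genes. Array medians lay between 6.125 and 6.5. Precision is limited by the number of arrays.

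Group means of all 23 arrays were fitted with limma 3.58.1 in R 4.3.3 (lmFit and eBayes, 19 residual degrees of freedom), with two-sided p-values, adjusted by Benjamini and Hochberg's method across all genes (threshold 0.05). The fit was also run on simulated data with known changes, where it missed most of the smallest ones. The simulated noise was independent between genes, without the shared muscle or fat signal of these tumors, so recovery here may differ. A gene that was not called is therefore not shown to be unchanged. A limit of low signal of 4.77, the 40th percentile of the means of all 22206 probe sets, left 11886 genes. P-values set the difference between group means against the spread between tumors, pooled over all groups of the fit. Named genes were the 15 with the smallest p in each direction, the 10 largest non-overlapping differences in each direction, and up to 4 members of a list by p and 2 by difference, with predicted genes left out of the first 2 rules, plus well-known markers. The members and the 46 gene lists were chosen with earlier results of these data known. Of 893 list entries 808 were measured, and the rest are not analysed here. Promoter sequences were from RefSeq (GRCm38.p6). Alternatives left out each array, regrouped arrays by source name, and changed the filter, normalization, weights, covariates and block.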

Additional observations from a re-analysis of the deposited data

Results flagged for a closer look

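Among 298 groups of 6 tumors checked (103 genes and 46 list means in each of DIO-VSG and DIO-HFD), 15 had a tumor that stood apart from the others by Dixon's criterion. Chance alone marks about 1 in 20 groups. In DIO-VSG tumors, Cd3e reached 11.66 in replicate 5 (nearest 9.28), the skin epidermis mean 4.517 in replicate 6 (nearest 3.804) and the red blood cell mean 5.475 in replicate 4 (nearest 4.793), while the tumor cell identity mean was lowest in replicate 4 at 7.505 (nearest 7.738).

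In DIO-HFD tumors, replicate 5 was the highest for Cd36 at 14.68 (nearest 10.9) and for the means of adipocytes at 10.8 (nearest 6.134), lipid-associated macrophages at 14.57 (nearest 13.09) and matrix proteases and inhibitors at 10.84 (nearest 9.988). Replicate 3 was the lowest for Tlr9 at 6.78 (nearest 8.49), for interferon receptors and signal relays at 11.12 (nearest 11.55) and for mast cells and eosinophils at 4.143 (nearest 5.067), and the highest for hypoxia and glycolysis at 14.3 (nearest 13.74) and the circadian clock at 9.468 (nearest 8.965). Osm was highest in replicate 6 at 7.71 (nearest 6.31), and the immediate early and heat shock mean in replicate 4 at 11.12 (nearest 10.49).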

How the results depend on the processing

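Limma called 0 genes between DIO-VSG and DIO-HFD under every alternative, and 0 between DIO-VSG and DIO-LFD. Single arrays left out gave 407 to 849 genes higher and 444 to 665 lower at an unadjusted p below 0.05, the most higher without DIO-HFD 4 (849) and the fewest without DIO-VSG 5 (407), and 29 to 93 higher and 30 to 55 lower with no overlap. The groups of the source names gave 855 higher at that p, and 43 higher and 32 lower with no overlap. The filter on low signal gave 255 lower at that p and 10 lower with no overlap, from fewer genes tested. Without the muscle-rich arrays 129 were higher and 149 lower with no overlap, and 222 and 259 when DIO-HFD 5 was left out as well, a setting chosen after seeing the data; fewer arrays overlap less often. Deviations of same-numbered tumors correlated between -0.156 and 0.27, and 1 of 6 tumors correlated best with its own number, so the numbers did not pair the samples. With the replicate number as a block, 591 were higher and 531 lower at that p. No overlap count exists where only the fit changed. The differences of the 103 genes named kept their sign in every alternative. Most of these genes were chosen by p or difference in the same arrays, so a stable sign was partly fixed by the choice. Alternatives that left out DIO-LFD or CON-LFD arrays, or changed only the variance model or block, also cannot change a difference. The medians of 27 of the 46 lists kept their sign too, the interferon, antigen presentation, T cell receptor, polarization and matrix lists among them. Those of 19 lists changed sign in at least 1 alternative, each with a median within 0.265 of 0 with all arrays. Among these were adipocytes (0.45 without DIO-HFD 5), chemokine ligands (0.07 without DIO-HFD 6), regulatory T cells, complement and skeletal muscle; the cause was not tested. Without the muscle-rich arrays the medians were 0.39 for interferon receptors and relays, 0.37 for cytotoxic effectors, 0.13 for NK cell receptors, -0.06 for matrix proteases and -0.59 for fibroblasts and matrix. Signal near the limit of 4.77, as for incretin receptors, limits what could be measured.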
